A study of Mus musculus with 20 samples.

Results

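The vascular endothelial growth factors and angiopoietins with their receptors were followed through 20 RNA-seq libraries of embryonic mouse heart. The 10 genes were taken by symbol from the 33495 genes of the deposited table of read counts: the ligands *Vegfa*, *Vegfb*, *Vegfc* and *Pgf*, the receptors *Flt1* and *Kdr*, the angiopoietins *Angpt1* and *Angpt2*, and the receptors *Tek* and *Tie1*. All 10 passed the filter on low counts in every line.

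The study deleted floxed *Kmt2d*, which encodes a histone H3 lysine 4 methyltransferase, with 1 of 3 Cre drivers in C57BL/6 mice. Mesp1Cre acts in early cardiac mesoderm, Mef2cAHF::Cre in precursors of the anterior heart field and Tnnt2::Cre in cardiomyocytes. Mutants carried Cre; Kmt2d fl/fl; mTmG/+ and controls, labelled WT, carried Cre; Kmt2d fl/+; mTmG/+, so every control also had Cre, the mTmG reporter and 1 floxed allele. Whole hearts at E9.0 were sequenced for Mesp1Cre (4 mutants and 4 controls), right ventricles with outflow tracts at E11.5 for Mef2cAHF::Cre (3 against 3) and whole hearts at E11.5 for Tnnt2::Cre (3 against 3). The protocol text in the labels gives E11.5 for all hearts. A number carried in the column names changes with every Cre line and cannot be told apart from it. Stage sets Mesp1Cre apart from the other lines and tissue sets Mef2cAHF::Cre apart. In those comparisons neither can be told apart from the line.

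VEGF ligands bind receptor tyrosine kinases on endothelial cells. VEGFA acts mainly through KDR (VEGFR2), the receptor that drives endothelial growth and migration, and FLT1 (VEGFR1) binds VEGFA tightly while signalling weakly, so that it can hold ligand away from KDR. Angiopoietins form a second system: ANGPT1 activates TEK (TIE2), ANGPT2 opposes or mimics it depending on context, and TIE1 is a related receptor without a ligand of its own that modifies TEK signalling. In the embryonic heart the endocardium and the forming vessels carry these receptors, and ANGPT1 is made by the myocardium.

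For Mef2cAHF::Cre the labels contradict each other. Sample titles and genotypes make 3 of the 6 libraries mutant, and the column headings of the counts table make those 3 WT and the other 3 mutant. A first header line above those headings repeats the library names of the sample descriptions and goes with the titles. Titles decide the groups below, which are written as labelled mutant and labelled control. Reading by the column names instead turns every sign of this line while leaving each p as it is. *Kmt2d* itself, listed under its older symbol *Mll2*, was higher in the labelled mutants than in the labelled controls, at 190.0 ± 3.45 against 153 ± 5.87 CPM (SD, 3 libraries each), which goes against the titles. It was lower in mutants of the other lines, by 0.21 on the log2 scale in Mesp1Cre (FDR 0.0764) and by 0.35 in Tnnt2::Cre (FDR 0.327), without passing the threshold. A count over the whole gene includes exons outside the floxed part, so it is a weak check of the labels. In the paper, *Kmt2d* by qRT-PCR was significantly lower in E11.5 Mef2cAHF::Cre mutant hearts than in heterozygous controls.

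Libraries held between 21727258 and 45341870 counted reads. Tests used edgeR's quasi-likelihood F test on counts within each line, with p adjusted over all genes tested (FDR, threshold 0.05). CPM is the count scaled to library size after TMM normalization within the line, and is compared between libraries of a line. FPKM is per length and is used wherever genes are set beside each other. All libraries had cardiomyocyte marker transcripts at high level, with a sum over 14 markers of 29096 to 69143 CPM. Each of the 14 endothelial markers was also detected in every group, and their sum ran from 408 to 612 CPM over all libraries. In bulk tissue, fewer cells of a type and less RNA per cell cannot be told apart.

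In FPKM, *Vegfb* and *Vegfa* were among the highest of the 10 genes and *Pgf* was the lowest in every group. In Mesp1Cre controls the order of medians began with *Angpt1* (21.9 FPKM), *Vegfb* (19.8), *Tek* (14.9), *Vegfa* (14.3) and *Kdr* (14.1), and each of these overlapped the next in its range over libraries. The ranges separated below *Kdr*: *Flt1* and *Tie1* followed at 5.39 each, then *Angpt2* at 4.50 and *Vegfc* at 3.55, and *Pgf* stood apart at 0.801. In Mesp1Cre mutants *Vegfa* led with a median of 52.4 FPKM and *Kdr* moved above *Angpt1* and *Tek*, at 26.7 FPKM against 22.6 and 15.7, although *Kdr* and *Angpt1* still overlapped.

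At E11.5, Tnnt2::Cre controls had *Vegfb* (median 19.97 FPKM) and *Tek* (19.5) at overlapping levels, followed by *Vegfa* (15.9), *Kdr* (12.1), *Angpt1* (11.3), *Vegfc* (7.46), *Tie1* (6.53), *Flt1* (3.58), *Angpt2* (2.28) and *Pgf* (1.65). Among these, *Kdr* overlapped *Angpt1* and *Vegfc* overlapped *Tie1*, and the other neighbours were separate. In the Mef2cAHF::Cre labelled controls, *Vegfa* (33.6) and *Vegfb* (33.5) overlapped at the top, and *Angpt1* stood at 8.43 FPKM, below *Tek* (20.04), *Vegfc* (12.1) and *Kdr* (11.2). In the labelled mutants *Angpt1* stood at 15.7 FPKM, separate from and above *Kdr* at 10.97 FPKM.

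**Figure D1:**
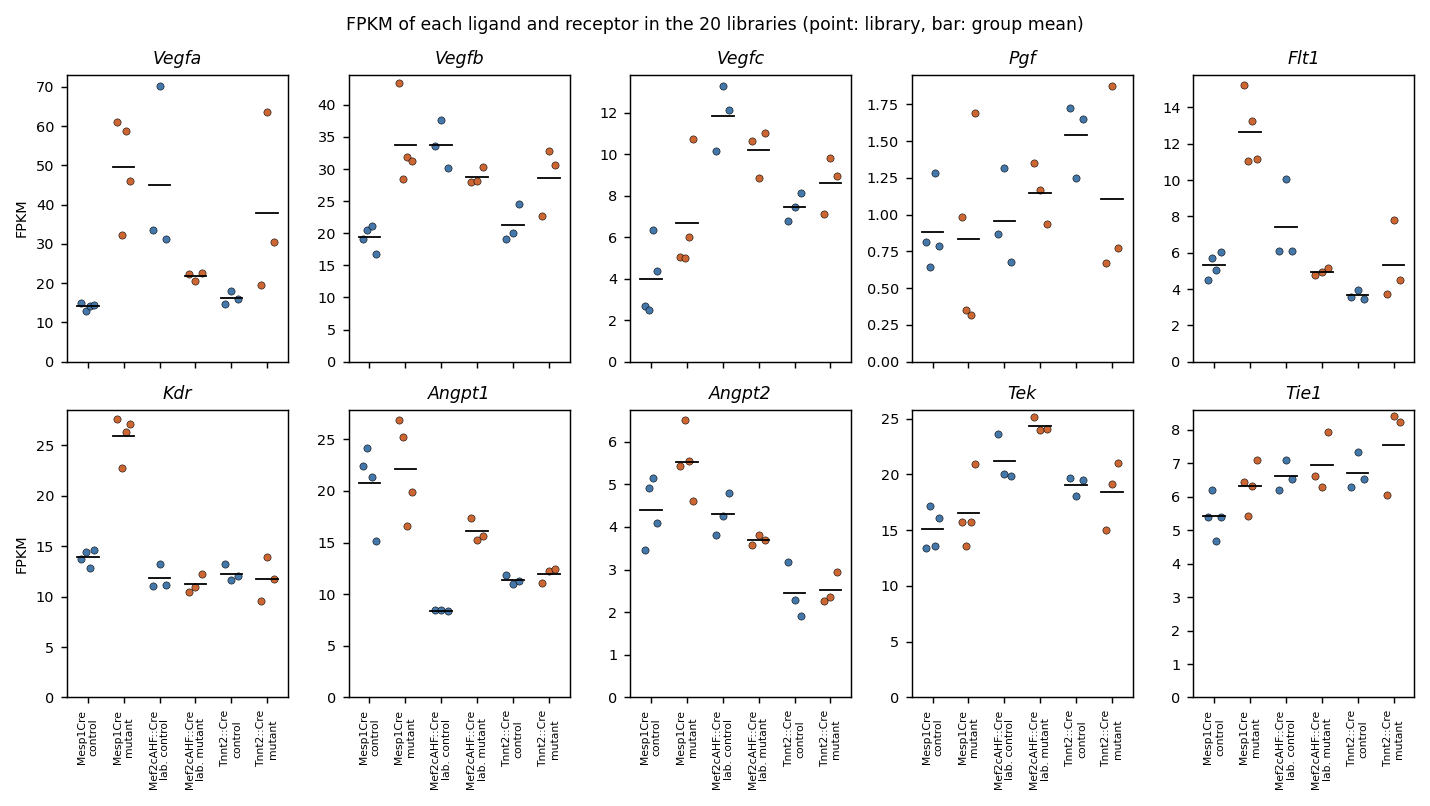
FPKM on the y axis for each of the 10 genes in 6 groups on the x axis, with 1 point per library and a bar at the group mean. *Vegfa*, *Vegfb*, *Flt1* and *Kdr* are higher in all 4 Mesp1Cre mutants than in all 4 controls. *Angpt1* separates the Mef2cAHF::Cre groups, with 15.3 to 17.4 FPKM in the labelled mutants and 8.37 to 8.44 in the labelled controls.

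In Mesp1Cre hearts 4 of the 10 genes were higher in mutants and none was lower: *Vegfa*, *Flt1*, *Kdr* and *Vegfb*. Of all 15883 genes tested 11.47% passed the threshold, and 6.17% passed it as higher in mutants. The angiopoietins and their receptors did not pass. The same 4 genes, and no other member, had mutants and controls without overlap in CPM, which was so for 17.7% of all genes tested.

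*Vegfa* (ENSMUSG00000023951), the main ligand of the family, lies on the minus strand of chromosome 17 from 46153942 to 46169318 in mm9. Mutant libraries had 246, 135, 239.9 and 184 CPM and control libraries 68.2, 59.8, 62.8 and 65.5 CPM. The controls were close to each other and the mutants were spread, with every mutant above every control. The means were 201 ± 52.3 CPM (SD, n = 4) and 64.1 ± 3.59 CPM (SD, n = 4), a 3.14-fold rise, or 1.65 on the log2 scale (SE 0.16, FDR 4.35e-05).

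*Flt1* (ENSMUSG00000029648, chromosome 5, minus strand, 148373180 to 148537587) encodes VEGFR1. It had 165, 124, 146 and 120.4 CPM in mutants and 55.4, 71.2, 60.6 and 74.1 CPM in controls. Every mutant was above every control, and the 2.13-fold rise (1.09 on the log2 scale, SE 0.12, FDR 0.000153) was the second largest of the 10. Counts over the gene add the membrane and the soluble form of the receptor.

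*Kdr* (ENSMUSG00000062960, chromosome 5, minus strand, 76328852 to 76374483) encodes VEGFR2, the signalling receptor. Mutants had 188, 161, 183 and 184 CPM and controls 107, 113, 96.7 and 112 CPM. Both groups were narrow and did not overlap, and *Kdr* rose by 0.74 on the log2 scale (SE 0.08, FDR 0.000137), or 1.67-fold. *Vegfb* (ENSMUSG00000024962, chromosome 19, minus strand, 7056963 to 7062141), a ligand of FLT1, had 65.3, 44.4, 48.7 and 46.7 CPM in mutants and 32.7, 35.3, 35.0 and 28.5 CPM in controls. It rose 1.56-fold (0.64 on the log2 scale, SE 0.13, FDR 0.00971), with the highest mutant well above the other 3. With the mean of the erythroid markers as a covariate *Vegfb* was at 0.39 and no longer passed (FDR 0.206), and with that of the endothelial markers it was at 0.77 and did not pass either (FDR 0.0815), while the other 3 genes passed in both fits. The calls over all genes went from 1821 to 378 and 340 in these fits. The endothelial mean did not overlap between mutants and controls, so that fit separates it poorly from genotype.

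The remaining members of this line were not distinguishable between genotypes. *Vegfc* (chromosome 8, plus strand, 55162960 to 55272450), the ligand of the lymphatic and venous receptor FLT4, had 11.6, 11.9, 14.1 and 24.4 CPM in mutants and 7.08, 6.59, 16.05 and 11.4 CPM in controls. The groups overlapped, and the difference of 0.59 on the log2 scale had an SE of 0.30 and an FDR of 0.231. *Angpt2* (chromosome 8, minus strand, 18690263 to 18741547) differed by 0.18 (SE 0.16, FDR 0.534), and *Angpt1* (chromosome 15, minus strand, 42256273 to 42508523) by -0.06 (SE 0.17, FDR 0.847). *Tek* (chromosome 4, plus strand, 94405980 to 94541667) and *Tie1* (chromosome 4, minus strand, 118143796 to 118162666) differed by -0.03 (SE 0.13, FDR 0.910) and 0.06 (SE 0.12, FDR 0.807). *Pgf* (chromosome 12, minus strand, 86507589 to 86518246), another FLT1 ligand, rested on 11 to 62 reads per library, and its value of -0.24 had an SE of 0.55. No exon of these genes overlaps an exon of another annotated gene except in *Angpt1*, where 6.65% of exonic bases lie opposite *Gm17473*.

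**Figure D2:**
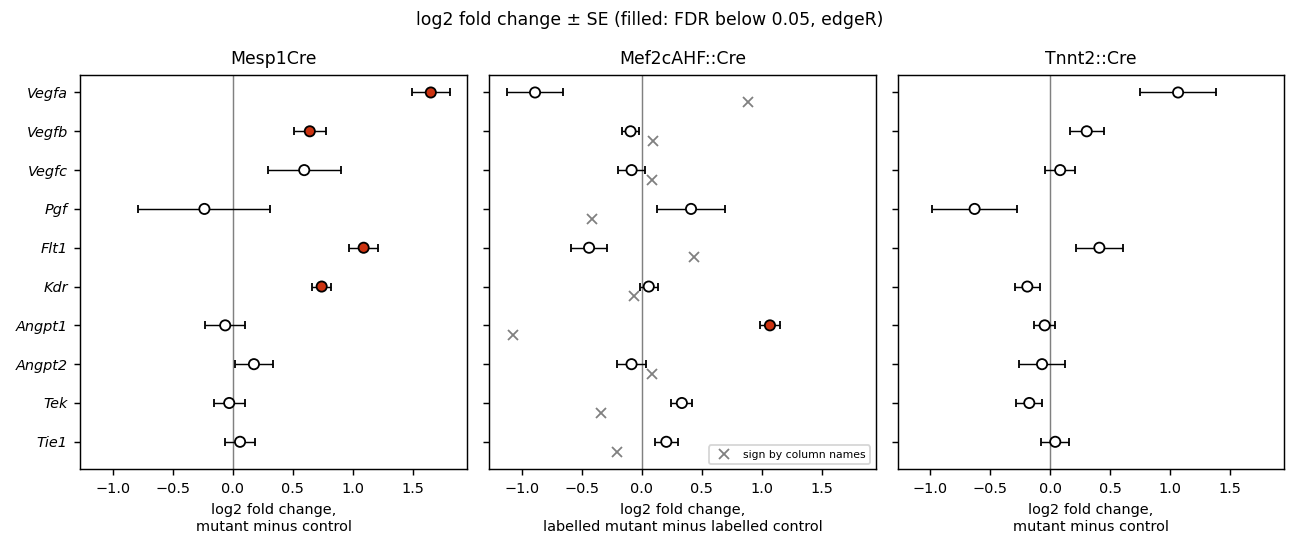
log2 fold change of mutant minus control on the x axis for the 10 genes, with bars for the SE, in 3 panels for the Cre lines. Filled points passed an FDR of 0.05 in edgeR: *Vegfa*, *Vegfb*, *Flt1* and *Kdr* in Mesp1Cre and *Angpt1* in Mef2cAHF::Cre. Grey crosses give the Mef2cAHF::Cre sign by the column names.

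The sequences just before the starts of the 4 genes that rose together in Mesp1Cre are shown because these genes moved in parallel. They are the 250 bases upstream of the first listed start in RefSeq (GRCm38.p6), each on the minus strand and written 5′ to 3′: chr17:46032378-46032627 for *Vegfa*, chr19:6987652-6987901 for *Vegfb*, chr5:147726012-147726261 for *Flt1* and chr5:75978456-75978705 for *Kdr*. Capitals mark ACGTG or GCGTG, the core bound by hypoxia-inducible factors (HIF), on either strand.
Vegfa: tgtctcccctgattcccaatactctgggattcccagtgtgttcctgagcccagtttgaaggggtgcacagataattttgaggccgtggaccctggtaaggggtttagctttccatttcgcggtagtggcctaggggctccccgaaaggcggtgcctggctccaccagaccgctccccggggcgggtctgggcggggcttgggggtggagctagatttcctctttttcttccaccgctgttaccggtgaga
Vegfb: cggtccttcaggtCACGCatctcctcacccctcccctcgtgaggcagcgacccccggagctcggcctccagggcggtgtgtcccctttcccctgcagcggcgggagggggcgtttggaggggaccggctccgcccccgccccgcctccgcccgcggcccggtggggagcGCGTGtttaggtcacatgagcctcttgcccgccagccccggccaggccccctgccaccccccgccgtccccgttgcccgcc
Flt1: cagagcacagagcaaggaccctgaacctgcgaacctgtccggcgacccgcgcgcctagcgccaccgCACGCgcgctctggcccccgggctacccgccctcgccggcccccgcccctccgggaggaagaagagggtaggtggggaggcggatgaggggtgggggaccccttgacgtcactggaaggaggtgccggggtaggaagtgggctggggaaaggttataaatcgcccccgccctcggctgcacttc
Kdr: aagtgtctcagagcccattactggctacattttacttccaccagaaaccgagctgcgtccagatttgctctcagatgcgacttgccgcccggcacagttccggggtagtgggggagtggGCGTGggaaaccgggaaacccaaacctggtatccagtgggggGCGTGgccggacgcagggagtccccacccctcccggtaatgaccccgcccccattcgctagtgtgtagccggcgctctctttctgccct

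The *Vegfb* and *Kdr* windows held 2 matches each, the *Flt1* window 1 and this *Vegfa* window 0. A second listed start of *Vegfa* had 2. All matches in the printed windows were to GCGTG, none overlapped another, and in *Kdr* they lay 131 and 89 bases before the start at their first base. Windows of this length held at least 1 match in 38.6% of all 32851 promoters listed by RefSeq, to GCGTG in 28.2% and to ACGTG in 16.6%. The ETS core CCGGAA, searched on both strands in the same windows, was found in *Kdr* alone among the 4 printed windows and in 12.0% of all promoters. Of the 10 genes 8 had a promoter in the table. *Angpt1* and *Angpt2* had no entry. Among members not called in Mesp1Cre, *Pgf* had 1 match to GCGTG at its first start and 0 at its second, and *Vegfc*, *Tek* and *Tie1* had 0. GC content was 59.2% in the printed *Vegfa* window, 76.4% in *Vegfb*, 70.4% in *Flt1* and 61.6% in *Kdr*. The median of all promoters was 52.4%, and the shares of all promoters were not matched for GC.

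Right ventricles and outflow tracts of Mef2cAHF::Cre gave another gene. *Angpt1*, the activating ligand of TEK, was the 1 member of 10 that passed the threshold, which 2.85% of 16920 genes did, 1.81% as higher in the labelled mutants. *Angpt1* had 78.5, 68.9 and 68.9 CPM in the labelled mutants and 34.6, 32.5 and 35.9 CPM in the labelled controls. The groups were tight and far apart, with means of 72.1 ± 5.57 CPM (SD, n = 3) and 34.3 ± 1.76 CPM (SD, n = 3). By the titles *Angpt1* was 2.10-fold higher in mutants (1.07 on the log2 scale, SE 0.08, FDR 0.000697), and by the column names it was 2.10-fold lower. It passed in all 17 alternative fits, at 0.86 to 1.11 on the log2 scale.

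*Vegfa* and *Flt1* went the other way in these libraries without passing the threshold. *Vegfa* had 101, 93.4 and 100.2 CPM in the labelled mutants and 139, 271 and 135 CPM in the labelled controls. The groups did not overlap, and labelled control 2 stood far above the other labelled controls. The difference was -0.89 by the titles and 0.89 by the column names (SE 0.24, FDR 0.0867). *Flt1* had 58.7, 60.3 and 61.7 CPM against 68.2, 105 and 71.2 CPM, again without overlap and again highest in labelled control 2, and differed by -0.44 (SE 0.15, FDR 0.162). Without labelled control 2 the *Vegfa* difference was smaller, -0.48, and passed (FDR 0.00570), in a fit where the calls over all genes went from 482 to 662. *Flt1* was then at -0.21 and did not pass (FDR 0.107). That library was also the 1 male library of the 6, by Y-linked transcripts, so a sex term cannot be told apart from leaving it out.

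*Tek* had 126, 119 and 117 CPM in the labelled mutants and 107, 85.1 and 94.3 CPM in the labelled controls, a difference of 0.34 (SE 0.09, FDR 0.0828). *Tie1* differed by 0.21 (SE 0.09, FDR 0.290). Both sets of libraries were separate in CPM for these receptors, as they were for *Angpt1*, *Vegfa* and *Flt1*: 5 of the 10 genes did not overlap, beside 24.0% of all genes tested. *Kdr* had 80.5, 84.5 and 91.4 CPM against 77.0, 87.1 and 81.9 CPM, overlapping, and differed by 0.06 (SE 0.08, FDR 0.745). *Vegfb*, *Vegfc*, *Angpt2* and *Pgf* overlapped too, with FDR from 0.504 to 0.783.

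In Tnnt2::Cre hearts 0 of the 10 genes passed, in a line where 0.293% of 17045 genes did. edgeR gave 1 of them an unadjusted p below 0.05, beside 11.9% of all genes tested, and that was *Vegfa*, the 1 member without overlap, beside 17.1% of all genes. DESeq2 and limma on FPKM also called 0. *Vegfa* had 87.8, 242 and 124 CPM in mutants and 64.1, 79.7 and 73.2 CPM in controls. Mutant 2 was far above the others, and mutant 1 was just above the highest control. The fitted difference was 1.07 on the log2 scale (SE 0.31, FDR 0.258). Without mutant 2 it was 0.55 (FDR 0.275). Without mutant 1 it was 1.34 and passed (FDR 0.0107), in a fit where the calls over all genes rose from 50 to 896.

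*Flt1* in this line had 45.4, 80.6 and 49.6 CPM in mutants and 42.2, 47.1 and 42.9 CPM in controls, highest in the same mutant 2, and differed by 0.41 (SE 0.20, FDR 0.467), or by 0.11 without that library. *Kdr* had 73.1, 89.99 and 81.6 CPM in mutants and 97.4, 87.5 and 94.4 CPM in controls, a value of -0.19 (SE 0.10, FDR 0.509). *Vegfb* was at 0.30 (SE 0.14, FDR 0.440), and *Pgf*, with 44 to 124 reads per library, at -0.63 (SE 0.36, FDR 0.530). *Angpt1* overlapped closely, with 46.5 to 50.7 CPM in mutants and 48.7 to 51.6 CPM in controls. *Vegfc*, *Angpt2*, *Tek* and *Tie1* lay between -0.17 and 0.08.

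Whether a change differed between lines was tested as an interaction in 1 edgeR fit of all 20 libraries over 18391 genes. Between Mesp1Cre and Tnnt2::Cre, both whole hearts, 3.04% of genes differed, and among the 10 it was *Kdr*: its change was larger in Mesp1Cre by 0.92 on the log2 scale (SE 0.12, FDR 0.000765). Neither *Vegfa* (0.57, SE 0.38, FDR 0.444) nor *Flt1* (0.67, SE 0.25, FDR 0.141) passed between these lines, which does not show equal changes. Without Tnnt2::Cre mutant 2 *Flt1* passed as well.

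By the titles, 5 of the 10 genes changed differently in Mef2cAHF::Cre and Mesp1Cre, where 11.3% of all genes did: *Vegfa* (-2.52), *Flt1* (-1.51), *Vegfb* (-0.72) and *Kdr* (-0.66) in 1 direction and *Angpt1* (1.15) in the other. By the column names 2 remained of these, *Kdr* (-0.78, FDR 0.00432) and *Angpt1* (-0.99, FDR 0.0272), beside 1.63% of all genes, so *Kdr* changed less in Mef2cAHF::Cre than in Mesp1Cre under both readings. Leaving out any 1 of 6 libraries, Mesp1Cre mutant 1 or a Mef2cAHF::Cre library other than labelled control 2, left 1 of these 2 calls. Against Tnnt2::Cre by the titles *Vegfa* (-1.95, FDR 0.0113) and *Angpt1* (1.12, FDR 0.00812) differed, beside 3.19% of all genes. By the column names 0 members passed in edgeR with 0% of all genes, 1 had an unadjusted p below 0.05 (*Angpt1*, -1.02, p 0.000209, FDR 0.427) beside 2.57% of all genes, and 1 was called when all genes with at least 1 count were kept. These comparisons share libraries and are not independent of each other.

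Ratios within a library set ligand beside receptor in FPKM. The ratio of *Vegfa* to *Kdr* was 0.902 to 1.10 in Mesp1Cre controls and 1.42 to 2.23 in mutants. It was 1.12 to 1.55 in Tnnt2::Cre controls and 2.04 to 4.57 in mutants, and 2.80 to 5.29 in Mef2cAHF::Cre labelled controls and 1.86 to 2.13 in those labelled mutant. The groups of each line were therefore separate in this ratio, as they already were for *Vegfa* alone in CPM. Depending on the line, 17.1% to 24.0% of single genes tested had no overlap between groups in CPM. A background of this kind was not computed for ratios, so separation of a ratio is a description and was not tested. The ratio of *Flt1* to *Kdr* was separate in Tnnt2::Cre, at 0.272 to 0.338 in controls and 0.382 to 0.563 in mutants, and in Mef2cAHF::Cre, at 0.546 to 0.760 and 0.424 to 0.458, but touched in Mesp1Cre, at 0.327 to 0.414 and 0.412 to 0.552. *Angpt2* to *Angpt1* was 0.451 to 0.574 in the Mef2cAHF::Cre labelled controls and 0.206 to 0.250 in those labelled mutant. The latter lie within the 0.154 to 0.334 covered by the other 2 lines, and the labelled controls lie outside it. Those lines are whole hearts, so tissue cannot be told apart from genotype in this comparison.

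**Figure D3:**
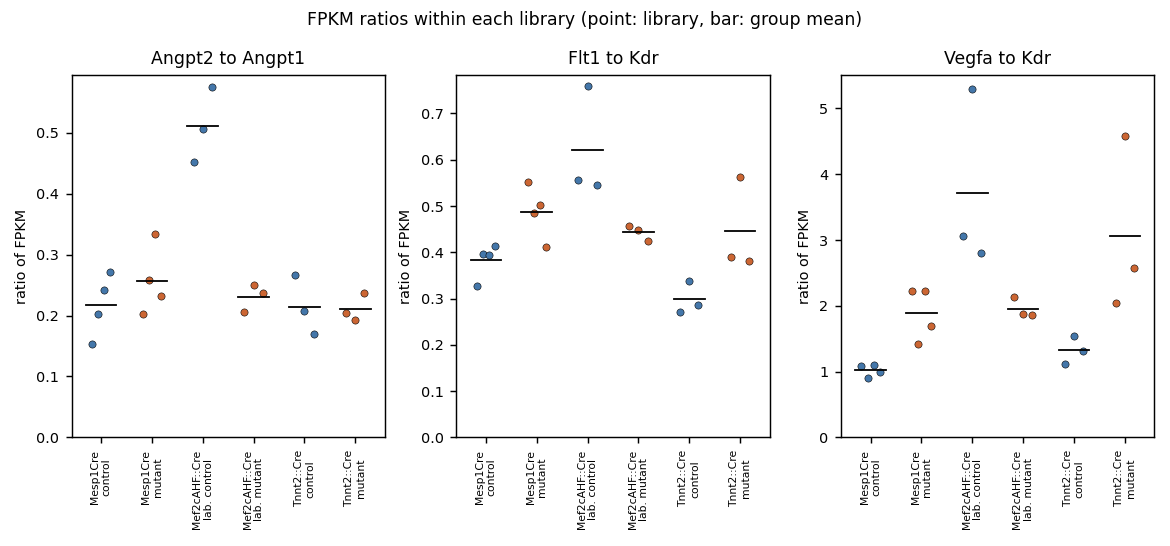
Ratios of FPKM within each library on the y axis, in 3 panels, for the 6 groups on the x axis, with 1 point per library and a bar at the group mean. *Angpt2* to *Angpt1* stands highest in the Mef2cAHF::Cre labelled controls, at 0.451 to 0.574.

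The spread of *Vegfa* and *Flt1* between libraries of a line ran in parallel. With genotypes together, Pearson's r of their log2 CPM was 0.96 over the 6 Tnnt2::Cre libraries, 0.99 over the 6 of Mef2cAHF::Cre and 0.95 over the 8 of Mesp1Cre. Libraries of a line share their genotype groups, and both genes were highest in labelled control 2 in Mef2cAHF::Cre and in mutant 2 in Tnnt2::Cre. For *Vegfa* and *Kdr* r was 0.97 in Mesp1Cre, and it was near 0 at E11.5, with 0.05 for Mef2cAHF::Cre and -0.19 for Tnnt2::Cre. *Angpt1* and its receptor *Tek* had an r of 0.89 in Mef2cAHF::Cre, where both genes separate the groups, of -0.27 in Mesp1Cre and of 0.62 in Tnnt2::Cre.

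The genes most like *Vegfa* over 20 libraries, after removing each line's mean, were *P4ha2*, *Stc2*, *Plod2*, *Ero1l* and *Rora*, at r from 0.971 to 0.975. *P4ha2* and *Plod2* encode collagen-modifying hydroxylases and *Ero1l* an oxidase of the endoplasmic reticulum. Those most like *Kdr* were *Pdcd4*, *Atxn1*, *Pik3ip1*, *Ldb2* and *Fzd1*, at 0.908 to 0.954. *Angpt2* had no close companion: its 5 nearest, *AL683843.1*, *Rptor*, *Kbtbd4*, *Nup214* and *Birc6*, reached 0.721 to 0.775. The libraries share line, genotype group and depth, and no test was made of these values.

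Other genes around the pathway were read from lists. Over all genes tested, 980 of 15883 were called higher and 841 lower in Mesp1Cre. In Mef2cAHF::Cre by the titles it was 306 higher and 176 lower of 16920, and in Tnnt2::Cre 13 and 37 of 17045. Accessory genes of VEGF and TIE signalling (further receptors, co-receptors and adaptors) had 2 of 10 tested higher and 0 lower in Mesp1Cre, with a median of -0.03 on the log2 scale. These were *Flt4*, the receptor of VEGFC, at 0.69 (SE 0.17, FDR 0.0226), and *Plxnd1*, a semaphorin receptor of vessels, at 0.44 (SE 0.11, FDR 0.0260). In Mef2cAHF::Cre 1 of 11 was lower and 0 higher by the titles, the co-receptor *Nrp2* at -0.70 (SE 0.10, FDR 0.0131), with 49.3 ± 2.08 CPM against 80.2 ± 11.9 CPM (SD, n = 3 each). In Tnnt2::Cre 0 of 11 passed in edgeR, and 0 had an unadjusted p below 0.05.

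Genes that respond to VEGF or mark sprouting tip cells had 2 of 13 tested higher and 0 lower in Mesp1Cre (median 0.32). *Apln*, the apelin ligand of tip cells, had 5.74 to 20.2 CPM in mutants and 0.494 to 0.890 CPM in controls (4.04 on the log2 scale, SE 0.40, FDR 6.96e-05). *Igfbp3*, a binding protein of insulin-like growth factors, rose by 2.52 (SE 0.18, FDR 1.17e-05). In Mef2cAHF::Cre 3 of 13 were lower by the titles and 0 higher (median -0.39): *Esm1*, an endothelial proteoglycan of tip cells, at -3.00 (SE 0.44, FDR 0.0127), *Pdgfb*, which recruits pericytes, at -1.66 (SE 0.26, FDR 0.0159), and *Apln* at -2.88 (SE 0.55, FDR 0.0305). *Esm1* had 0.226 to 0.619 CPM in the labelled mutants and 2.17 to 5.63 CPM in the labelled controls. The column names turn these signs. Of all 16920 genes tested in Mef2cAHF::Cre, 176 were called lower by the titles. In Tnnt2::Cre 0 of 13 passed in edgeR, 4 had an unadjusted p below 0.05 and the median was 0.39.

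Endothelial transcription factors had 6 of 18 higher and 0 lower in Mesp1Cre (median 0.50), led by *Sox7* at 1.19 (SE 0.14, FDR 0.000256), *Sox17* at 2.04 (SE 0.37, FDR 0.00410), *Elk3* at 0.55 (SE 0.11, FDR 0.00596) and *Fli1* at 0.61 (SE 0.12, FDR 0.00701). *Elk3* shares 6.95% of its exonic bases with *Cdk17* on the opposite strand. In Mef2cAHF::Cre 1 of 17 passed, *Gata2* at 0.60 (FDR 0.0399), and in Tnnt2::Cre 0 of 18, where 1 had an unadjusted p below 0.05.

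General endothelial markers moved both ways in Mesp1Cre. Of 14 tested 3 were higher and 1 lower, with a median of 0.12, and their summed level was 439.7 to 564 CPM in mutants and 408 to 459 CPM in controls. *Egfl7* (0.83), *Robo4* (1.64) and *Pecam1* (0.51) were higher and *Cd34* (-0.58) lower, and *Egfl7* and *Cd34* each share part of their exons with another gene. The mean of their log2 CPM, which served as the covariate, was 4.21 to 4.44 in mutants and 4.04 to 4.18 in controls, without overlap. With this covariate *Vegfa* (1.56), *Flt1* (0.98) and *Kdr* (0.68) still passed. Because the covariate follows genotype, that fit cannot separate endothelial content well from genotype. Endocardial markers had 1 of 6 higher (*Npr3*, 0.62) and 2 lower (*Cytl1*, -6.38, and *Nrg1*, -0.76), with a median of -0.10. In Mef2cAHF::Cre the endothelial median was 0.03 with 2 of 14 higher and 0 lower, and the endocardial median 0.25 with 2 of 6 higher, *Npr3* (0.62) and *Cytl1* (3.76). In Tnnt2::Cre the medians were 0.14 and -0.09, and 0 of these 20 genes passed in edgeR, 2 having an unadjusted p below 0.05.

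HIF target genes, to which *Vegfa* belongs by its known regulation though it was not in the list, had 21 of 23 tested higher and 0 lower in Mesp1Cre, with a median of 1.24. *Bnip3*, a mitophagy receptor, rose by 1.90 (SE 0.14, FDR 1.29e-05), *Higd1a* by 1.31, *P4ha2* by 2.18 and *Egln1*, the oxygen-sensing hydroxylase that marks HIF for degradation, by 1.51 (SE 0.14, FDR 3.39e-05). In Mef2cAHF::Cre 2 of 24 were lower by the titles and 0 higher, *Pfkfb3* (-1.06) and *Hk2* (-0.79), both of glycolysis, with a median of -0.63. All 24 had a negative value by the titles, and so a positive one by the column names. The paper reports hypoxia response among the functions of genes upregulated in the mutants of every Cre line. In Tnnt2::Cre 0 of 24 passed in edgeR, 15 had an unadjusted p below 0.05 and the median was 0.61. All genes tested had medians of -0.002, -0.007 and 0.004 in Mesp1Cre, Mef2cAHF::Cre and Tnnt2::Cre, and 26.9%, 17.9% and 11.9% of them had an unadjusted p below 0.05.

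**Figure D4:**
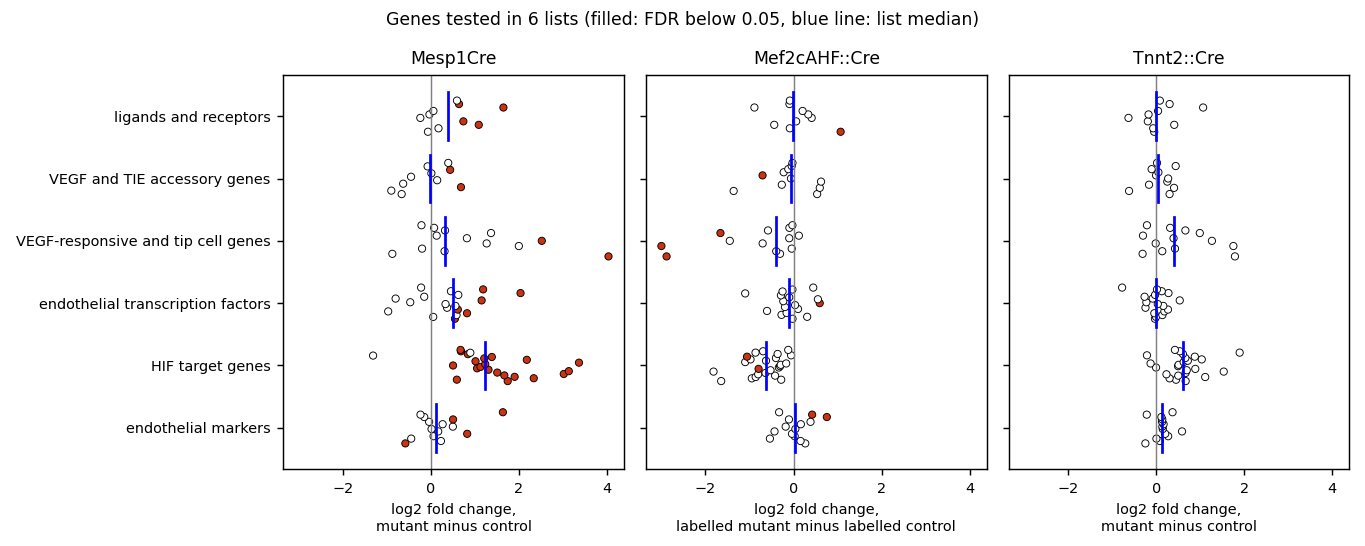
log2 fold change on the x axis of each gene tested in 6 lists, in 3 panels for the Cre lines, with filled points past an FDR of 0.05 in edgeR and a blue line at the list median. The HIF targets sit farthest from 0 in Mesp1Cre, with a median of 1.24, and lie on the other side in Mef2cAHF::Cre by the titles, at -0.63.

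The erythroid share of a library was lowest where *Vegfa* was highest in every line, and its part in the result was not tested beyond the covariate fits. Erythroid markers took 0.259% to 0.834% of counted reads in Mesp1Cre mutants and 0.540% to 1.76% in controls, 2.50% to 4.60% in Mef2cAHF::Cre labelled mutants and 0.838% to 3.28% in the labelled controls, and 2.10% to 12.0% in Tnnt2::Cre mutants and 9.15% to 14.8% in controls. The libraries with the highest *Vegfa* and the lowest share were Mesp1Cre mutant 1 (246 CPM, 0.259%), labelled control 2 of Mef2cAHF::Cre (271 CPM, 0.838%) and Tnnt2::Cre mutant 2 (242 CPM, 2.10%). Tnnt2::Cre mutant 1, whose *Vegfa* of 87.8 CPM was near the controls, had 12.0%. The order was not the same throughout: Mesp1Cre control 2, with the lowest *Vegfa* of its line (59.8 CPM), had 0.540%, below mutant 2 with 135 CPM and 0.834%. Of the 12 markers 5 were lower and 1 higher in Mesp1Cre (median -1.18), 2 were higher and 0 lower in Mef2cAHF::Cre by the titles (median 0.92), and 0 passed in Tnnt2::Cre in edgeR with 0 at an unadjusted p below 0.05 (median -0.93). *Hba-a1* and *Hbb-b1* among them each have a near-identical copy in the genome, so reads could be split between the copies. With erythroid content as a covariate the *Vegfa* value went from 1.65 to 1.33 in Mesp1Cre and still passed (FDR 0.00137). It went from -0.89 to -0.28 in Mef2cAHF::Cre (FDR 0.426) and from 1.07 to 0.31 in Tnnt2::Cre (FDR 0.600). *Flt1* went from 0.41 to 0.026 in Tnnt2::Cre and from -0.44 to -0.099 in Mef2cAHF::Cre in the same fits. *Angpt1* in Mef2cAHF::Cre was at 0.98 in that fit and passed (FDR 0.00162).

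**Figure D5:**
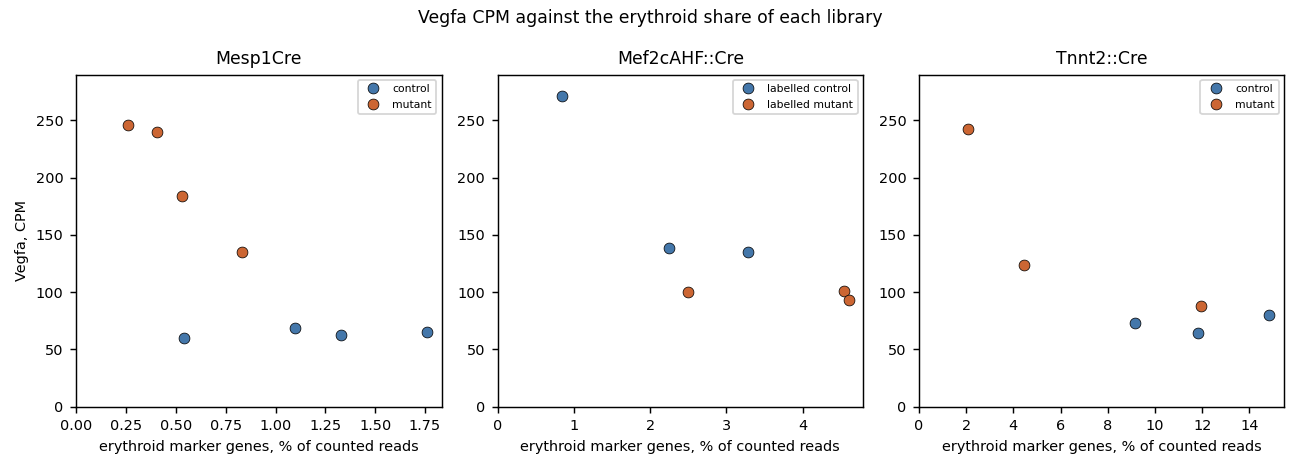
*Vegfa* in CPM on the y axis against the percent of counted reads in erythroid marker genes on the x axis, 1 point per library, in 3 panels for the Cre lines. The highest *Vegfa* of each line, 246, 271 and 242 CPM, falls on the library with the lowest erythroid share.

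Other measured properties also followed the groups in Mesp1Cre. Mitochondrial transcripts took 13.3% to 15.7% of counted reads in its mutants and 22.0% to 23.4% in its controls. This share was also separate in Mef2cAHF::Cre, at 30.1% to 30.7% in the labelled mutants and 24.8% to 28.2% in the labelled controls. In Tnnt2::Cre it overlapped, at 21.7% to 23.9% in mutants and 19.5% to 25.1% in controls. In Mesp1Cre all 4 mutants and 2 of 4 controls were male by Y-linked transcripts. With sex as a covariate *Vegfa* (1.59), *Flt1* (1.10), *Vegfb* (0.74) and *Kdr* (0.71) all passed. Without a covariate, 980 of all 15883 genes tested in Mesp1Cre were called higher and 841 lower. Mural markers had 2 of 8 lower and 0 higher there (median -0.42), epicardial markers 0 of 6 in edgeR with 0 at an unadjusted p below 0.05, macrophage markers 1 of 4 lower, and cardiomyocyte markers 2 of 14 higher and 2 lower (median -0.03). The part of the mitochondrial share and of these markers in the *Vegfa*, *Flt1* and *Kdr* results was not tested. Nor was the part of the mitochondrial share in the Mef2cAHF::Cre results.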

How the data were processed

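RNA from single-embryo heart samples of the 3 Cre lines was sequenced as paired 100-base reads. The authors aligned reads to mm9 (the submitters' processing notes name TopHat2 2.0.8b). The paper names featureCounts for assigning reads to genes, while the deposited counts carry a name that credits USeq. The deposited read count per gene and library is without normalization. The deposited FPKM was computed by the authors with USeq from those counts, gene length and library total. Whether counting used strand is not given in the sources used here. The authors' variance-corrected columns were not used.

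Samples were grouped by titles and genotypes. Counts of each line were fitted alone in edgeR 4.0.16 (R 4.3.3) with filterByExpr, TMM, no covariate and the quasi-likelihood F test. FDR is the Benjamini-Hochberg adjusted p, taken over every gene tested in the line. The SE is the log2 fold change divided by the square root of F. Interactions came from 1 fit of 6 groups. Alternatives were DESeq2 1.42.0 (size factors, Wald test), other count filters, limma 3.58.1 on log2(FPKM + 0.1) and log2(FPKM + 1), the replicate number as a block, sex, endothelial and erythroid covariates, and each library left out. Only the fits within each line were tried on simulated counts with known changes.

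The text names all 10 genes in each line, up to 4 genes of lowest FDR per list and line, *Kmt2d*, and the 5 genes most correlated with *Vegfa*, *Angpt2* and *Kdr* (log2 CPM, prior count 2). The 10 genes and the 12 lists were chosen with earlier results of these data known. Libraries were called male at 10 CPM or more of Y-linked genes. Labels number separate libraries, so p-values measure the spread between these samples. Promoter sequences are from RefSeq (GRCm38.p6).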

Additional observations from a re-analysis of the deposited data

Results flagged for a closer look

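All 10 values below were singled out because a member's change differed between lines in the interaction test of the 6-group fit. They share libraries. Between Mesp1Cre and Tnnt2::Cre, *Kdr* differed by 0.92 on the log2 scale (SE 0.12, FDR 0.000765), with a rise of 0.74 in the former and a value of -0.19 in the latter.

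Between Mef2cAHF::Cre by the titles and Mesp1Cre, *Vegfa* differed by -2.52 (SE 0.39), *Flt1* by -1.51 (SE 0.25), *Vegfb* by -0.72 (SE 0.18), *Kdr* by -0.66 (SE 0.12) and *Angpt1* by 1.15 (SE 0.21), with FDR from 0.000299 to 0.0151. By the column names *Kdr* differed by -0.78 (SE 0.12, FDR 0.00432) and *Angpt1* by -0.99 (SE 0.21, FDR 0.0272). *Angpt1* turned its direction between the readings and *Kdr* did not.

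Between Mef2cAHF::Cre by the titles and Tnnt2::Cre, *Vegfa* differed by -1.95 (SE 0.41, FDR 0.0113) and *Angpt1* by 1.12 (SE 0.23, FDR 0.00812). Tissue differs between these lines, and stage also differs for Mesp1Cre.

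No library stood apart by Dixon's test for a single member in the 2 Mesp1Cre groups of 4, over 22 sets of values that include *Kmt2d*. Groups of 3 were not tested.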

How the results depend on the processing

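The number of members past the threshold in Mesp1Cre was 4 in every fit but those with the endothelial or erythroid covariate (3). In Mef2cAHF::Cre it was 1, beside 482 calls over all genes, and became 3 with the DESeq2 Wald test (*Flt1*, *Angpt1* and *Tek*; 1083), 4 with all genes of at least 1 count (1311), 4 with the endothelial covariate (1093) and 2 with the sex covariate (678), which there marks labelled control 2 alone. Over libraries left out it ran from 1 to 2, gaining *Tek* without labelled control 1 (489) and *Vegfa* without labelled control 2 (662). In Tnnt2::Cre it ran from 0 to 1, the 1 being *Vegfa* without mutant 1, where calls over all genes went from 50 to 896. Interactions ran from 1 to 2 for Mesp1Cre minus Tnnt2::Cre, with 2 without Tnnt2::Cre mutant 2, and from 1 to 2 for Mef2cAHF::Cre minus Mesp1Cre by the column names. By the column names against Tnnt2::Cre the number was 0, and 1 with all genes of at least 1 count. The cause was not tested.

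Correlations did not show pairing by the replicate numbers that mutants and controls share, and they cannot exclude it. Same-numbered deviations correlated at -0.03 to 0.09 in Mesp1Cre, -0.01 to 0.18 in Mef2cAHF::Cre and -0.04 to 0.06 in Tnnt2::Cre. Some libraries correlated best with their own number and others did not. With the replicate block 4, 1 and 0 members passed, as without it, and 1384, 517 and 28 of all genes.

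Some values that were not called changed sign. In Mesp1Cre, on log2(FPKM + 0.1) and log2(FPKM + 1), *Angpt1* was 0.089 and 0.085 and *Tek* 0.12 and 0.11. *Angpt1* was 0.074 with the sex covariate and 0.17 with the endothelial covariate, where *Pgf* was 1.09 and *Tie1* -0.033, and *Tie1* was -0.067 with the erythroid covariate. In Mef2cAHF::Cre on these FPKM scales *Kdr* was -0.074 and -0.069. In Tnnt2::Cre *Angpt1* was 0.068 and 0.063 and *Angpt2* 0.063 and 0.042 there; with the endothelial covariate *Vegfc* was -0.0096, *Angpt2* 0.099 and *Tie1* -0.034, and with the erythroid covariate -0.038, 0.013 and -0.060. Over libraries left out, Mesp1Cre gave *Pgf* -0.81 to 0.034, *Angpt1* -0.19 to 0.059, *Tek* -0.14 to 0.053 and *Tie1* -0.015 to 0.14, Mef2cAHF::Cre gave *Vegfc* -0.18 to 0.0012 and *Angpt2* -0.16 to 0.050, and Tnnt2::Cre gave *Vegfc* -0.0023 to 0.17, *Angpt2* -0.20 to 0.14 and *Tie1* -0.025 to 0.13. On log2(FPKM + 0.1) the median of all genes moved to 0.15, -0.13 and 0.11 in the 3 lines, so signs of values close to 0 depend on the scale.

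The signs of Mef2cAHF::Cre rest on which label is right. With 3 or 4 libraries a group, the smallest change called among these genes within a line was 0.64 on the log2 scale (*Vegfb* in Mesp1Cre), and a value as large as 1.07 (*Vegfa* in Tnnt2::Cre) was not called. *Pgf* rested on 11 to 124 reads per library.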

Other observations

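Markers of other cell types gave some values that no comparison above used. *Tnni3*, the cardiac troponin I of maturing myocytes, differed by -0.78 on the log2 scale in Mesp1Cre (SE 0.13, FDR 0.00215) and by 1.09 in Mef2cAHF::Cre by the titles (SE 0.09, FDR 0.000697). *Rgs5*, a pericyte marker, differed by -3.598 on the log2 scale in Tnnt2::Cre, lower in mutants (SE 0.27, FDR 0.00211). It was the 1 of 9 mural markers that passed there. Of these 9, 6 had a positive value and 3 a negative one, with a median of 0.056. Their sum was 1978 to 2385 CPM in mutants and 1222 to 2128 CPM in controls, which overlap. In Mef2cAHF::Cre 0 of 9 mural markers passed in edgeR, and 2 had an unadjusted p below 0.05.

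In Mef2cAHF::Cre 1 of 14 cardiomyocyte markers was higher by the titles (median 0.22), 0 of 7 epicardial markers passed with 3 at an unadjusted p below 0.05 (median -0.37), and 1 of 10 macrophage markers was lower, *Aif1* at -1.72 (SE 0.38, FDR 0.0482). In Tnnt2::Cre 0 of 14 cardiomyocyte, 0 of 7 epicardial and 0 of 10 macrophage markers passed in edgeR, with 3, 2 and 5 at an unadjusted p below 0.05. The macrophage list summed to 7.75 to 22.8 CPM in Mesp1Cre libraries, where *C1qa* was at 0 in both groups, and to 43.4 to 58.8 CPM in the other lines.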
